A study of Homo sapiens with 6 samples.

Results

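The genes described here are 28 genes of cholesterol and fatty acid synthesis and of its control by sterol regulatory element binding proteins (SREBPs). They were taken by gene symbol from a list of the pathway, chosen with earlier results of these data known. All 28 were found among the 19923 protein-coding genes of the count tables. All 28 were also among the 15311 genes that passed the filter on low counts. Per the labels, RNA-seq of poly(A) RNA was performed on Kelly, an established line of human neuroblastoma cells, given in the labels as MYCN-amplified and WT in genotype. Both groups were grown in RPMI1640 with 10% heat-inactivated fetal bovine serum and were transfected for 72 hours, 3 libraries with a control siRNA (siControl) and 3 with an siRNA against METTL3 (siMETTL3). METTL3 is the enzyme that places N6-methyladenosine (m6A) on mRNA within a larger complex, and the comparison asks how its transient depletion alters the transcriptome. The labels do not say whether libraries of a group came from separate cultures, so the p-values measure the spread between these libraries, which may be technical.

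SREBPs are transcription factors made as membrane proteins of the endoplasmic reticulum. When membrane cholesterol is low, the escort protein SCAP carries them to the Golgi, where proteases release the part that enters the nucleus, and when cholesterol is high, INSIG proteins hold SCAP back. SREBP-2 (gene SREBF2) mainly drives the genes that make cholesterol from acetyl-CoA, and SREBP-1 (gene SREBF1) mainly drives those that make fatty acids. Nervous tissue makes its own cholesterol, and growing tumour cells use sterols and fatty acids for new membranes.

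Values are CPM, counts relative to a library size scaled with TMM (edgeR's trimmed mean method), and means are given ± SD over 3 libraries. The libraries held between 15430000 and 21565013 counts. The shallowest was siControl replicate 3, which was also the lowest siControl library for 15 of the 28 genes. A count covers the whole span of a gene, introns included. METTL3 itself was at 53.5, 52.8 and 56.2 CPM in siControl and 32.99, 31.8 and 34.3 CPM in siMETTL3, so that 61.0% of the control level remained (log2 fold change -0.71, SE 0.070, edgeR FDR 4.68e-06). The noradrenergic markers PHOX2A, HAND2, GATA3, TH, DBH, CHGA and MYCN summed to 87439 to 133575 counts in siControl libraries and 175703 to 197758 in siMETTL3 libraries. All but PHOX2A of these 7 markers rose and held that call under all 17 alternatives, from GATA3 (log2 fold change 0.24, edgeR FDR 0.00657) to TH (log2 fold change 1.52, edgeR FDR 1.89e-07), with MYCN at 0.62 (edgeR FDR 5.17e-06). PHOX2A did not pass (log2 fold change -0.10, edgeR FDR 0.311). The markers of the line thus moved with the comparison, and their part in the values of the 28 genes was not tested. Leukocyte markers summed to 31 to 62 counts and hepatocyte markers to 2 to 6. Epithelium markers summed to 95 to 171 counts, mostly EPCAM, with KRT5 at 0 in every library. Fibroblast markers summed to 1249 to 2074 counts, mostly PDGFRB.

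Genes of sterol synthesis and of its control were mostly higher after METTL3 depletion, by modest amounts. Of the 28 genes, 16 rose, 2 fell and 10 did not pass the test (edgeR quasi-likelihood test, Benjamini-Hochberg FDR under 0.05 over all 15311 tested genes). The genes that rose were 57.1% of the list, and the background was 18.6% of all tested genes. Those that fell were 7.14% of the list, beside 19.2% of all tested genes. In either direction the shares were 64.3% and 37.8%. The median log2 fold change of the 28 genes was 0.23, against -0.0021 over all tested genes, and single genes ranged from -0.40 (STARD4) to 0.64 (SREBF1). In none was the change as large as 2-fold. Because the RNA came from whole cultures, fewer cells that express a gene and less of its RNA per cell cannot be told apart.

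The CPM values of the groups did not overlap in 18 of the 28 genes, and these were the same 18 that passed the test. The siMETTL3 libraries were higher in 16 of these and lower in 2. Over all tested genes, 49.9% had groups that did not overlap, 24.8% with siMETTL3 higher and 25.1% with siMETTL3 lower. Relative to the siControl mean of each gene, the median over the 28 genes was 0.27, 0.20 and 0.21 on the log2 scale in siMETTL3 replicates 1, 2 and 3. It was 0.012, 0.0062 and -0.047 in the siControl libraries. All 3 siMETTL3 libraries therefore lay above all 3 siControl libraries in this median. Together the 28 genes held 0.406% to 0.466% of all counts in siControl libraries and 0.507% to 0.517% in siMETTL3 libraries. With 1 library fewer, 12 or 13 genes rose when siControl replicate 2 or any single siMETTL3 library was left out, and 16 rose without siControl replicate 1 or 3. Where 12 or 13 rose, 50% to 53.6% of the 28 genes were called in either direction, beside 27.2% to 29.2% of all tested genes. Without siControl replicate 1 or 3, 67.9% of the 28 genes were called, beside 41.3% or 40.5% of all tested genes.

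**Figure D1:**
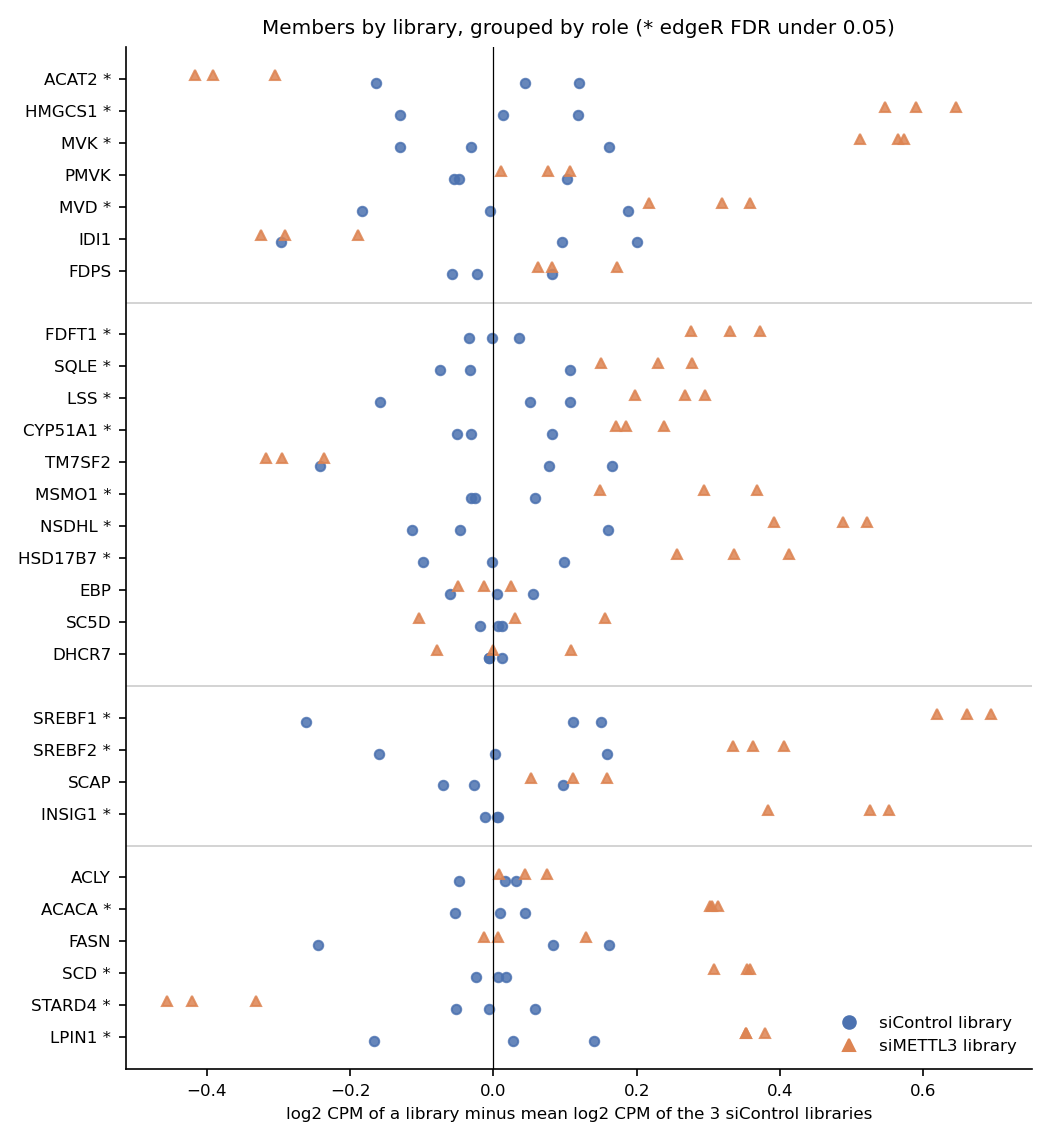
Each point is one library: the x axis gives its log2 CPM minus the mean log2 CPM of the 3 siControl libraries, and the genes are stacked by role (mevalonate steps, squalene and sterol steps, regulators, fatty acid and transport genes). The siMETTL3 triangles lie to the right of all siControl circles in 16 genes and to the left of them in 2, ACAT2 and STARD4.

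Among the 4 regulators, both SREBP genes and INSIG1 rose and SCAP was not past the threshold. The share that rose was 75%, beside 18.6% of all tested genes. SREBF1 (chromosome 17, 17810399 to 17837011, minus strand) was measured at 101, 98.4 and 76.1 CPM in siControl and 147, 144 and 139.9 CPM in siMETTL3. It rose from 91.9 ± 13.8 to 144 ± 3.77 CPM (log2 fold change 0.64, SE 0.089, edgeR FDR 0.000157), the largest log2 fold change of the 28 genes. Its siControl replicate 3 was clearly the lowest library, and without it the log2 fold change was 0.53 (edgeR FDR 5.80e-09; alternatives gave 2.14e-10 to 0.00189). The last 3.96% of the SREBF1 span overlaps RAI1 on the opposite strand, a gene that was itself higher (log2 fold change 0.54, edgeR FDR 0.0224). RAI1 was at 189 ± 40.7 CPM in siControl and 276 ± 13.2 CPM in siMETTL3, above SREBF1 in both groups. The call of RAI1 was lost without siMETTL3 replicate 2 (edgeR FDR 0.0554), without the filter (0.0598) and with the span length offset (0.0614). The overlap holds 6.75% of the exonic bases of SREBF1, and its part in the SREBF1 count was not tested.

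SREBF2 (chromosome 22, 41833079 to 41907307, plus strand) was at 437, 392 and 350.4 CPM in siControl and 503, 518 and 494 CPM in siMETTL3. The groups did not overlap, and it rose from 393 ± 43.2 to 505 ± 12.4 CPM (log2 fold change 0.36, SE 0.072, edgeR FDR 0.00147). INSIG1 (chromosome 7, 155297776 to 155310235, plus strand) is both a brake on SREBP processing and a classical SREBP target. It was at 51.0, 51.7 and 51.6 CPM in siControl and 74.1, 67.1 and 75.4 CPM in siMETTL3, with siControl libraries that were nearly the same and all siMETTL3 libraries well above them (log2 fold change 0.49, SE 0.066, edgeR FDR 7.10e-05). SCAP (chromosome 3, 47413681 to 47477126, minus strand) was at 87.9 ± 5.37 CPM in siControl and 94.6 ± 3.51 CPM in siMETTL3, with overlapping groups (log2 fold change 0.10, SE 0.063, edgeR FDR 0.213). The 4 log2 fold changes of this group were all above 0, with a median of 0.42.

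The promoters of these genes were examined next, because many of the genes moved together. RefSeq promoter windows on GRCh38.p14, from 250 bases before to 50 bases after an annotated start, were matched by symbol for 24 of the 28 genes, in 34 windows. ACAT2, FASN, FDFT1 and SQLE were not matched. Letters were searched on both strands. The sterol regulatory element TCACNCCAC was found in the window of 1 gene, SREBF2. This was 2.94% of the 34 windows, beside 1.07% of the 17323 windows of tested genes. Counted by gene it was 4.17% of the 24 matched genes, beside 1.48% of the tested genes with a window. The palindrome TCACGTGA, which contains the E-box CACGTG, was found for 1 gene, INSIG1. This was 2.94% of the 34 windows, beside 1.49% of the windows of tested genes, and 4.17% of matched genes, beside 2.01% of tested genes. CACGTG, counted also where it lies inside the palindrome, was found in 14.7% of the 34 windows and in 8.84% of the windows of tested genes. By gene the shares were 16.7% of the 24 matched genes and 12.1% of the tested genes with a window. The NF-Y box CCAAT, the site of a factor that binds beside SREBPs at sterol genes, was found in 67.6% of the 34 windows (23 windows) and in 34.4% of the windows of tested genes. By gene, it was found for 19 of the 24 matched genes, 79.2%, and for 42.9% of the 11813 tested genes with a window. A match is a run of letters and not a measured binding site, and promoters that share windows are counted more than once.

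The 250 bases before the start are shown for 5 genes: the 2 that hold an SREBP element (SREBF2 and INSIG1), a pair of mevalonate genes that rose most (HMGCS1 and MVK), and STARD4, which fell. Each is written 5′ to 3′ on the strand of its gene, and capitals mark either SREBP element or the NF-Y box, which reads ATTGG where it lies on the other strand. SREBF2 is chr22:41832855-41833104, plus strand, INSIG1 is chr7:155297628-155297877, plus strand, HMGCS1 is chr5:43313413-43313662, minus strand, MVK is chr12:109573544-109573793, plus strand, and STARD4 is chr5:111512536-111512785, minus strand.
SREBF2: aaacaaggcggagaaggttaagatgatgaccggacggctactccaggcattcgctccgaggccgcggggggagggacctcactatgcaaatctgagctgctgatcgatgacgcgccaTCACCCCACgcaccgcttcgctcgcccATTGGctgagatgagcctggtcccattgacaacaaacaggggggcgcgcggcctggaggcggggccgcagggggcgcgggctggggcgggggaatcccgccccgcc
INSIG1: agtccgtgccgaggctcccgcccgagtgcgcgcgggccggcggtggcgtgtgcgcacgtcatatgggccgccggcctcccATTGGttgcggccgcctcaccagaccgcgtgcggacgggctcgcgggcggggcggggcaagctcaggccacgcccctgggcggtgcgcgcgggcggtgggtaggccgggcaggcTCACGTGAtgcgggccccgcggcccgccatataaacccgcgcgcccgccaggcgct
HMGCS1: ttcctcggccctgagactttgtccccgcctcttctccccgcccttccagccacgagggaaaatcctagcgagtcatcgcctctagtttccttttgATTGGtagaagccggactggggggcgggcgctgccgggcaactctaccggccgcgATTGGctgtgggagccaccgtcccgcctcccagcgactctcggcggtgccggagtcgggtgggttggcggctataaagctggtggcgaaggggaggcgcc
MVK: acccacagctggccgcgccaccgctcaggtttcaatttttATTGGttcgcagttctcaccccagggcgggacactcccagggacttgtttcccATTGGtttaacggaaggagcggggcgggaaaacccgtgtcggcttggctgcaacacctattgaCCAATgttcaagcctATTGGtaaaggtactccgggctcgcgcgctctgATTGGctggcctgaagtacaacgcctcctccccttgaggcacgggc
STARD4: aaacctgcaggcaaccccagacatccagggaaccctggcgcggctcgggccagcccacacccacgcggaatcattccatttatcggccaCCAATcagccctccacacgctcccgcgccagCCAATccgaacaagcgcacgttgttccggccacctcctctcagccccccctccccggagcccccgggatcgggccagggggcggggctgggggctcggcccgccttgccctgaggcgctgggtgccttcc

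In these letters SREBF2 holds a sterol regulatory element from -133 to -125 relative to the start and a CCAAT box downstream of it. INSIG1 holds the palindrome from -56 to -49. HMGCS1 holds 2 CCAAT boxes, MVK holds 5 and STARD4 holds 2, none of them with an SREBP element of the letters searched. HMGCS1 has another annotated start, with the bases before it at chr5:43313182-43313431, and that window held none of the letters searched. CCAAT boxes thus stand in front of genes that rose and of a gene that fell. They were also found for IDI1, FDPS, TM7SF2, EBP, SC5D, DHCR7 and ACLY, which did not pass the test. No CCAAT box was found for PMVK and SCAP, which did not pass, or for CYP51A1, SREBF1 and LPIN1, which rose.

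The 7 genes of the mevalonate steps, which turn acetyl-CoA into farnesyl diphosphate, moved in both directions: 3 rose, 1 fell and 3 were not past the threshold. The shares were 42.9% higher and 14.3% lower, beside 18.6% and 19.2% of all tested genes. HMGCS1 (chromosome 5, 43287470 to 43313512, minus strand), whose enzyme joins acetyl-CoA to acetoacetyl-CoA, was at 98.2, 109 and 117 CPM in siControl and 162, 157 and 168 CPM in siMETTL3. It rose from 108 ± 9.26 to 162 ± 5.64 CPM (log2 fold change 0.59, SE 0.067, edgeR FDR 1.59e-05), and every siMETTL3 library lay far above every siControl library. MVK (chromosome 12, 109573255 to 109598125, plus strand), mevalonate kinase, was at 24.9, 21.8 and 20.4 CPM in siControl and 32.99, 33.2 and 31.8 CPM in siMETTL3 and rose as well (log2 fold change 0.54, SE 0.090, edgeR FDR 0.000383). The start of MVK lies head to head with MMAB, and 1.31% of the MVK span overlaps it. MMAB, which encodes an enzyme of vitamin B12 metabolism, rose too (log2 fold change 0.30, SE 0.094, edgeR FDR 0.0211), a call that was lost without siControl replicate 2 or siMETTL3 replicate 1 or 2 (edgeR FDR 0.0706, 0.0873 and 0.0551).

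MVD (chromosome 16, 88651935 to 88663161, minus strand), which decarboxylates mevalonate diphosphate, was at 31.9, 36.4 and 28.1 CPM in siControl and 39.8, 41.0 and 37.2 CPM in siMETTL3. The lowest siMETTL3 value stood just above the highest siControl value (log2 fold change 0.29, SE 0.092, edgeR FDR 0.0248). The call of MVD was lost when siMETTL3 replicate 1 or 2 was left out (edgeR FDR 0.0869 and 0.11, range over alternatives 0.000704 to 0.11).

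ACAT2 (chromosome 6, 159762045 to 159779112, plus strand), the cytosolic thiolase that makes acetoacetyl-CoA for the pathway, went the other way. It was at 58.6, 71.3 and 67.7 CPM in siControl and 53.1, 49.2 and 50.1 CPM in siMETTL3 and fell by 0.37 on the log2 scale (SE 0.077, edgeR FDR 0.00189). The end of the gene overlaps TCP1 on the opposite strand over 615 bases, which hold 17.2% of the ACAT2 exonic bases. TCP1, a chaperonin subunit, had a higher level than ACAT2 in both groups. It fell from 290 ± 34.3 to 227 ± 5.51 CPM, by 0.35 on the log2 scale (edgeR FDR 0.0028). As the counting used no strand, reads of the overlap were counted for both genes, and the part of TCP1 in the ACAT2 result was not tested.

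IDI1 (chromosome 10, 1039152 to 1049170, minus strand), the isomerase of the isoprene units, was at 35.7, 46.9 and 50.4 CPM in siControl and 35.9, 38.5 and 35.1 CPM in siMETTL3. Only siControl replicate 1 was as low as the siMETTL3 libraries, and the gene did not pass (log2 fold change -0.28, SE 0.11, edgeR FDR 0.0646). It passed without siControl replicate 1 (log2 fold change -0.41, edgeR FDR 0.000355), with the replicate block (edgeR FDR 0.0318) and in DESeq2 (adjusted p 0.0486), over a range of 0.000355 to 0.206. PMVK (chromosome 1, 154924740 to 154936719, minus strand), phosphomevalonate kinase, was at 28.7 ± 1.80 CPM in siControl and 30.0 ± 1.02 CPM in siMETTL3 (log2 fold change 0.061, SE 0.081, edgeR FDR 0.594). FDPS (chromosome 1, 155308748 to 155320666, plus strand), farnesyl diphosphate synthase, was at 94.9 ± 4.81 CPM in siControl and 102 ± 4.18 CPM in siMETTL3 (log2 fold change 0.10, SE 0.061, edgeR FDR 0.203). With an offset for gene span length FDPS was called higher (log2 fold change 0.18, edgeR FDR 0.032, range 0.017 to 0.516). The annotation lists 8 pseudogenes of FDPS and 3 of IDI1, and the part of reads that match several copies in these counts was not tested.

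**Figure D2:**
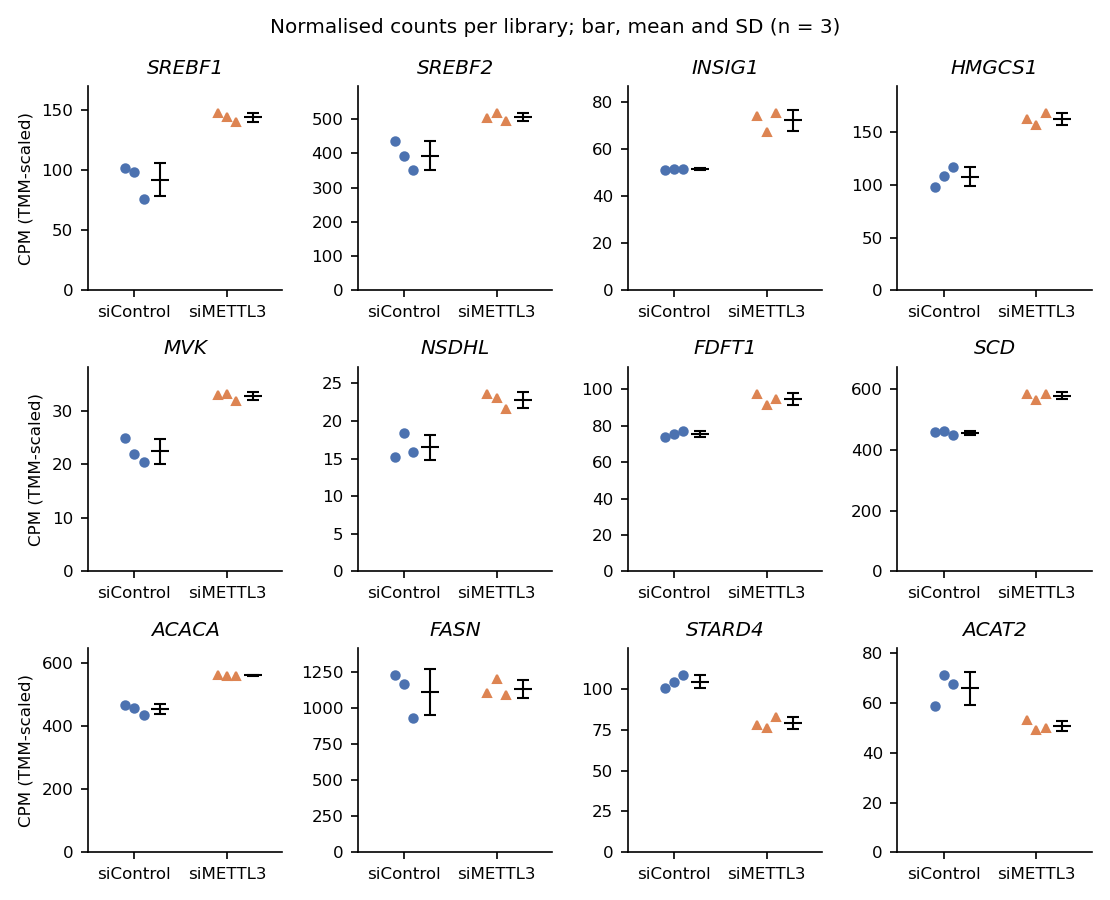
TMM-scaled CPM (y axis, from 0) of 12 of the genes in each siControl library (circles) and each siMETTL3 library (triangles), with mean and SD of 3 libraries as bars. In FASN the groups overlap, in ACAT2 and STARD4 the siMETTL3 libraries are lower, and in the other 9 genes they are higher.

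The steps from farnesyl diphosphate to cholesterol were represented by 11 genes, of which 7 rose, 0 fell and 4 were not past the threshold. The share that rose was 63.6%, beside 18.6% of all tested genes, and 19.2% of all tested genes fell. FDFT1 (chromosome 8, 11795573 to 11839304, plus strand) makes squalene, the first product committed to sterols. It was at 73.6, 75.3 and 77.3 CPM in siControl and 97.6, 91.3 and 94.8 CPM in siMETTL3, with no overlap between the groups (log2 fold change 0.33, SE 0.058, edgeR FDR 0.000646). NSDHL (chromosome X, 152830967 to 152869729, plus strand), a dehydrogenase that takes part in removing methyl groups from the sterol ring, was at 15.2, 18.4 and 15.9 CPM in siControl and 23.6, 23.1 and 21.6 CPM in siMETTL3. It had the largest log2 fold change of these 11 genes (log2 fold change 0.46, SE 0.10, edgeR FDR 0.00246). FDFT1 and NSDHL were called under all 17 alternatives.

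The other 5 genes that rose changed less than NSDHL, and each lost the call when certain single libraries were left out. SQLE (chromosome 8, 124998497 to 125022283, plus strand), the squalene epoxidase that is a main control point of the later pathway, was at 103, 99.9 and 113 CPM in siControl and 117, 123 and 127 CPM in siMETTL3 (log2 fold change 0.22, SE 0.064, edgeR FDR 0.0146). The call of SQLE was lost when siControl replicate 2, or siMETTL3 replicate 2 or 3, was left out (edgeR FDR 0.0885, 0.0623 and 0.0776, range 0.0003 to 0.0885). LSS (chromosome 21, 46188141 to 46228824, minus strand), which closes the ring to lanosterol, rose from 133 ± 12.5 to 158 ± 5.50 CPM (log2 fold change 0.25, SE 0.069, edgeR FDR 0.0115). Leaving out siMETTL3 replicate 1 or 2 ended the call of LSS (edgeR FDR 0.0666 and 0.0536, range 0.00278 to 0.0666). In both genes the highest siControl library stayed below the lowest siMETTL3 library.

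CYP51A1 (chromosome 7, 92112153 to 92134803, minus strand), the lanosterol demethylase, rose from 110.0 ± 5.52 to 126 ± 3.09 CPM (log2 fold change 0.20, SE 0.058, edgeR FDR 0.0157). Leaving out siControl replicate 2 or siMETTL3 replicate 1 ended the call (edgeR FDR 0.085 and 0.0852, range 0.000883 to 0.0852). Nearly the whole CYP51A1 span lies within a second gene of the tables on the same strand, AC000120.3, whose counts were almost the same (112 ± 6.08 CPM in siControl and 127 ± 3.28 CPM in siMETTL3). The values of CYP51A1 and AC000120.3 cannot be told apart. A further gene on the same strand, AC000120.4, overlaps 13.4% of the CYP51A1 span. It was at 128 ± 4.37 CPM in siControl and 136 ± 4.49 CPM in siMETTL3 and did not pass (log2 fold change 0.083, edgeR FDR 0.272). Its part in the CYP51A1 count was not tested. The annotation also lists 3 pseudogenes of CYP51A1.

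MSMO1 (chromosome 4, 165327667 to 165343164, plus strand), a methylsterol monooxygenase, was at 45.2, 45.3 and 48.1 CPM in siControl and 56.6, 51.2 and 59.6 CPM in siMETTL3 (log2 fold change 0.27, SE 0.073, edgeR FDR 0.00917). Without siMETTL3 replicate 3, its highest library, the edgeR FDR was 0.0581 (range 0.000702 to 0.0581). HSD17B7 (chromosome 1, 162790702 to 162812817, plus strand), a sterol ketone reductase, had few counts, 185 to 314 per library, and rose from 11.5 ± 0.784 to 14.5 ± 0.785 CPM (log2 fold change 0.34, SE 0.11, edgeR FDR 0.0257). Its call was lost when siControl replicate 2, or siMETTL3 replicate 1 or 3, was left out (edgeR FDR 0.103, 0.109 and 0.0695, range 0.0127 to 0.109). The annotation lists 2 pseudogenes of it.

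The 4 sterol genes that did not pass include the enzymes of the last steps. EBP (chromosome X, 48521799 to 48528716, plus strand), a sterol isomerase, was at 42.0 ± 1.70 CPM in siControl and 41.7 ± 1.08 CPM in siMETTL3 (log2 fold change -0.015, SE 0.070, edgeR FDR 0.895). SC5D (chromosome 11, 121292681 to 121313410, plus strand), a sterol desaturase, was at 24.0 ± 0.280 CPM in siControl and 24.6 ± 2.21 CPM in siMETTL3 (log2 fold change 0.030, SE 0.090, edgeR FDR 0.824). DHCR7 (chromosome 11, 71428193 to 71452868, minus strand), which reduces the last precursor to cholesterol, was at 54.4 ± 0.399 CPM in siControl and 54.8 ± 3.56 CPM in siMETTL3 (log2 fold change 0.012, SE 0.067, edgeR FDR 0.912). In these 3 genes the groups overlapped and the log2 fold changes were close to 0, with signs that depended on the setting. The EBP span is shared with AF196969.1 over 99.9% of its length.

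TM7SF2 (chromosome 11, 65111845 to 65116408, plus strand), a sterol reductase, was at 15.1, 16.0 and 12.1 CPM in siControl and 11.5, 12.1 and 11.6 CPM in siMETTL3 (log2 fold change -0.30, SE 0.12, edgeR FDR 0.0654). Only siControl replicate 3 was as low as the siMETTL3 libraries. When it was left out, TM7SF2 was called lower (log2 fold change -0.40, edgeR FDR 0.00642, range 0.00642 to 0.326). With the offset for gene span length the log2 fold change was -0.16 (edgeR FDR 0.319).

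Of the 4 fatty acid synthesis genes, ACACA and SCD rose, and ACLY and FASN were not past the threshold. Together with STARD4 and LPIN1 they form the list of 6 fatty acid and transport genes. In it 3 rose (50%) and 1 fell (16.7%), beside 18.6% and 19.2% of all tested genes. ACACA (chromosome 17, 37084992 to 37406836, minus strand), acetyl-CoA carboxylase, which makes malonyl-CoA, was at 468, 457 and 437 CPM in siControl and 564, 561 and 560.1 CPM in siMETTL3. The siMETTL3 libraries were nearly the same and lay above every siControl library (log2 fold change 0.31, SE 0.054, edgeR FDR 0.000592). Its span of 321845 bases, of which 4.05% are exonic, contains part of C17orf78 in 5.20% of its length, a gene at 1.503 ± 0.287 CPM in siControl and 3.96 ± 0.152 CPM in siMETTL3. SCD (chromosome 10, 100347233 to 100364826, plus strand), which puts the double bond into stearic and palmitic acid, was at 458, 462 and 449 CPM in siControl and 584, 565 and 583 CPM in siMETTL3 and rose likewise (log2 fold change 0.34, SE 0.053, edgeR FDR 0.000233). The annotation lists 1 pseudogene of SCD.

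ACLY (chromosome 17, 41866917 to 41930542, minus strand), which makes cytosolic acetyl-CoA from citrate for both pathways, was at 504, 498 and 477 CPM in siControl and 519, 495 and 508 CPM in siMETTL3. The groups overlapped and the log2 fold change was 0.042 (SE 0.054, edgeR FDR 0.585). FASN (chromosome 17, 82078338 to 82098294, minus strand), the fatty acid synthase, was at 1232, 1166 and 929 CPM in siControl and 1106, 1204 and 1091 CPM in siMETTL3. Its siControl values were widely spread, with replicate 3 far below the others, and all siMETTL3 values lay between the siControl extremes (log2 fold change 0.031, SE 0.091, edgeR FDR 0.82). Without siControl replicate 3 the log2 fold change of FASN was -0.082 (edgeR FDR 0.192, range 0.192 to 0.928).

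The last 2 genes act beside the synthetic steps and changed in opposite directions. STARD4 (chromosome 5, 111496033 to 111512590, minus strand) encodes a carrier that moves cholesterol between membranes and is a known SREBP target. It was at 101, 104 and 109 CPM in siControl and 77.9, 76.1 and 82.9 CPM in siMETTL3 and fell by 0.40 on the log2 scale (SE 0.061, edgeR FDR 0.000182), the lowest log2 fold change of the list. LPIN1 (chromosome 2, 11677595 to 11827409, plus strand) encodes a phosphatidate phosphatase of triglyceride and phospholipid synthesis. It was at 197, 182 and 159 CPM in siControl and 232, 228 and 228 CPM in siMETTL3 and rose from 179 ± 19.0 to 229 ± 2.45 CPM (log2 fold change 0.35, SE 0.070, edgeR FDR 0.00136). Neither gene overlaps another gene of the tables, and both were called under all 17 alternatives.

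Over the whole list, 21 of the 28 genes overlap no other gene of the tables. Of these 21, 12 rose (57.1%) and 1 fell (4.76%). Of the 7 with an overlap, 4 rose (57.1%) and 1 fell (14.3%). Over all tested genes, 18.6% rose and 19.2% fell. A set of 12 of the 18 called genes was called under all 17 alternatives: ACAT2, HMGCS1, MVK, FDFT1, NSDHL, SREBF1, SREBF2, INSIG1, ACACA, SCD, STARD4 and LPIN1.

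**Figure D3:**
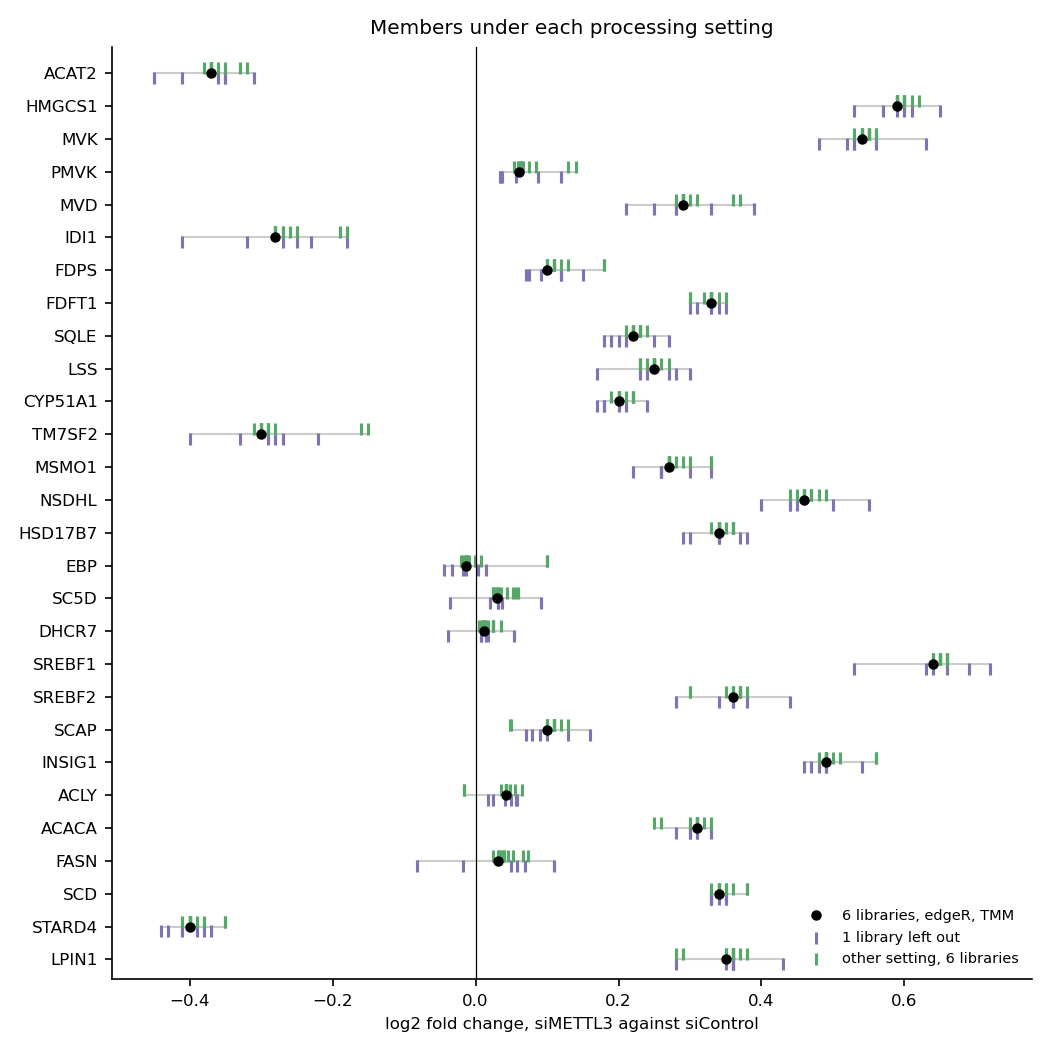
The x axis gives the log2 fold change of siMETTL3 against siControl for each of the 28 genes: black dots, all 6 libraries with edgeR and TMM; purple ticks, fits that leave out 1 library; green ticks, the other settings with all 6 libraries. Marks on both sides of 0 occur in EBP, SC5D, DHCR7, ACLY and FASN.

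Other lipid genes, from 6 pathway lists, moved mostly upward where they passed the test. These lists were chosen with earlier results of these data known. Of 72 listed genes, 70 were tested, 17 rose and 5 fell. Together 31.4% of them were called, beside 37.8% of all tested genes, and by direction 24.3% rose and 7.14% fell, beside 18.6% and 19.2%. The genes that process SREBPs showed few changes: of 12 tested, 0 rose and 2 fell, with a median log2 fold change of -0.0046. These were PAQR3, a Golgi protein that binds SCAP (log2 fold change -0.52, SE 0.096, edgeR FDR 0.00103), and ERLIN2, a membrane protein of the endoplasmic reticulum (log2 fold change -0.27, SE 0.067, edgeR FDR 0.00608). INSIG2, the relative of INSIG1, was at 8.11 ± 0.512 CPM in siControl and 9.57 ± 0.699 CPM in siMETTL3 and did not pass (log2 fold change 0.24, SE 0.13, edgeR FDR 0.15).

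The list of cholesterol export had the largest median of any list, 0.67 over 6 tested genes, of which 4 rose and 0 fell. The share that rose was 66.7%, beside 18.6% of all tested genes, and 19.2% of all tested genes fell. The list also holds 2 receptor genes and a ubiquitin ligase, and its median counts ABCG4, whose call was not stable. ABCA1 (chromosome 9, 104781006 to 104928155, minus strand), the exporter that loads cholesterol onto apolipoproteins, was at 4.82, 4.71 and 5.18 CPM in siControl and 10.2, 10.5 and 11.0 CPM in siMETTL3. All siMETTL3 libraries were far above all siControl libraries, with a fitted ratio of 2.16 (log2 fold change 1.11, SE 0.13, edgeR FDR 2.62e-05). ABCG1 (chromosome 21, 42199689 to 42297244, plus strand), which exports cholesterol to lipoprotein particles, was at 10.4, 8.26 and 7.96 CPM in siControl and 17.6, 17.5 and 18.4 CPM in siMETTL3 (log2 fold change 1.00, SE 0.12, edgeR FDR 2.78e-05). MYLIP, a ubiquitin ligase of lipoprotein receptors, rose from 20.9 ± 0.916 to 26.5 ± 1.48 CPM (log2 fold change 0.34, SE 0.087, edgeR FDR 0.00678). The fourth gene that rose, ABCG4, had few counts and groups that overlapped, 0.742, 0.601 and 1.59 CPM in siControl and 1.51, 2.48 and 1.70 CPM in siMETTL3 (log2 fold change 1.01, SE 0.38, edgeR FDR 0.048). The call of ABCG4 held without siControl replicate 3 and was lost without any other single library (edgeR FDR 0.0606 to 0.219), in DESeq2 (adjusted p 0.0505) and without the robust option (edgeR FDR 0.0521). ABCA1, ABCG1, MYLIP and SREBF1 are known targets of the liver X receptors, and the receptor genes NR1H2 (log2 fold change 0.22, SE 0.092, edgeR FDR 0.0773) and NR1H3 (log2 fold change 0.049, SE 0.13, edgeR FDR 0.808) were not past the threshold. Without siControl replicate 3, NR1H2 was called higher (edgeR FDR 0.03). The part of these receptors in the values of the 4 named target genes was not tested.

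In the list of fatty acid elongation, desaturation and activation, 8 of 22 tested genes rose and 0 fell, with a median log2 fold change of 0.18. The share called was 36.4%, close to the 37.8% of all tested genes in either direction. By direction, 18.6% of all tested genes rose and 19.2% fell. ACSL3, an acyl-CoA synthetase of lipid droplets and endoplasmic reticulum, rose from 97.2 ± 4.01 to 138 ± 6.53 CPM (log2 fold change 0.50, SE 0.060, edgeR FDR 2.66e-05). ACSL4, which prefers polyunsaturated fatty acids, rose from 47.2 ± 3.14 to 63.8 ± 1.09 CPM (log2 fold change 0.43, SE 0.067, edgeR FDR 0.000243). FADS1, a desaturase of polyunsaturated fatty acids, rose from 122 ± 2.15 to 148 ± 6.08 CPM (log2 fold change 0.28, SE 0.056, edgeR FDR 0.00128).

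**Figure D4:**
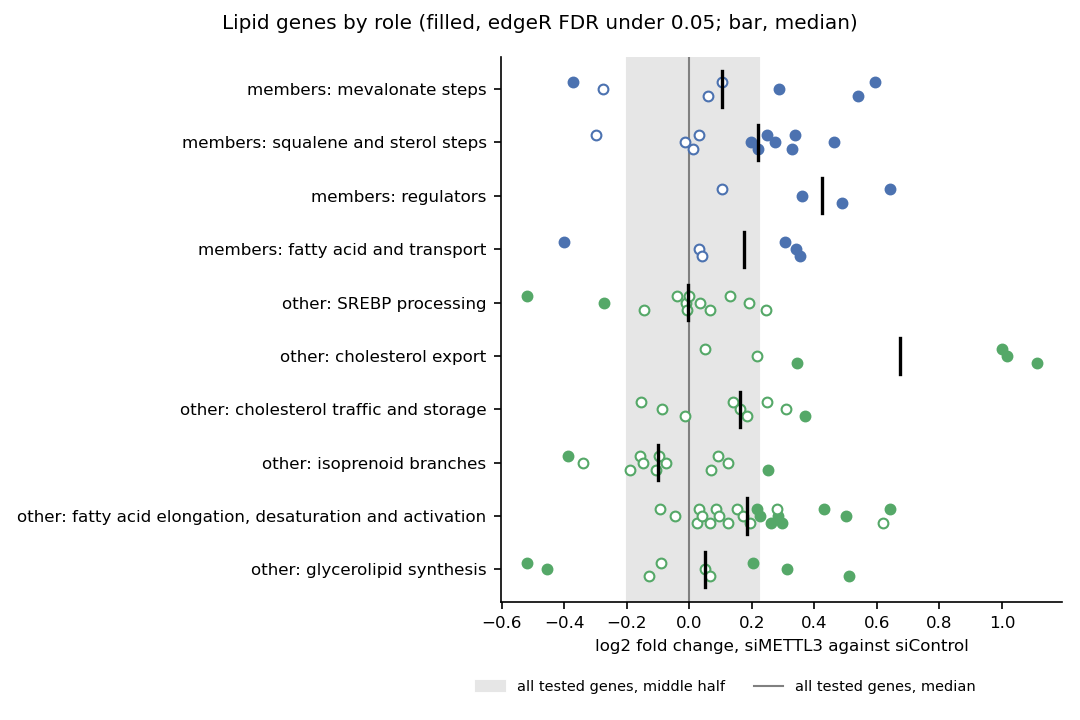
Each circle is one tested gene, placed by its log2 fold change (x axis) in the role or list named on the y axis; blue, the 28 genes, and green, the other lipid lists, with filled circles past the edgeR threshold black bars at list medians and the central 50% of all tested genes in grey. The regulators (median 0.42) and the cholesterol export genes (median 0.67) lie to the right, and the SREBP processing genes lie around 0.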

How the data were processed

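Per the file headers, the authors deposited raw read counts per gene, made with featureCounts 1.5.3 and a protein-only GENCODE release 33 annotation. The submitters' processing notes list FastQC 0.11.5, Trimmomatic 0.36, HISAT2 2.1.0 and Subread 1.5.3, and GRCh38. Per the file headers, reads over the whole gene were counted, introns included, without strand and for every overlapping gene. The spans of all 28 genes lie at the same place and strand in GENCODE release 44, which gave exons.

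Here, edgeR 4.0.16 (R 4.3.3) was used on 15311 of 19923 genes kept by filterByExpr, with TMM scaling and a robust quasi-likelihood test of siMETTL3 against siControl over all 6 libraries. The FDR is the Benjamini-Hochberg value over all tested genes, and SE is the absolute log2 fold change over the square root of F. Libraries of one group differed by more than sampling noise (chi-square per degree of freedom 3.05 to 16.1). The fit was tested on simulated data. Alternatives were RLE, upper quartile and total count scaling, no filter or a minimum of 10 counts per library, limma-voom (limma 3.58.1), DESeq2 1.42.0, no robust option, a replicate block, an offset for gene span length, and each library left out. The file headers name every alignment as an SAC input and the METTL3 siRNA as siMettl3B, terms that the labels do not explain, so the libraries may be inputs of another assay. The 28 genes and the lists were chosen with earlier results of these data known. Named genes are the 28, METTL3, markers, overlapping genes, and up to 3 called genes per other list with the smallest FDR, and ABCG4, INSIG2, NPC1, NR1H2 and NR1H3 were added after their values were seen. Some listed genes, and the list of further sterol genes that held most of them, are not reported here. Marker lists of epithelium (95 to 171 counts per library in sum, mostly EPCAM) and fibroblasts (1249 to 2074, mostly PDGFRB) were also summed.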

Additional observations from a re-analysis of the deposited data

How the results depend on the processing

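The 28 genes gave 16 higher and 2 lower calls with edgeR on all 6 libraries. Without one library, the higher calls ranged from 12 to 16, the lower calls from 2 to 3 and the median log2 fold change from 0.21 to 0.24. Over the other settings the higher calls were 16 or 17, the lower calls 2 or 3, and the median 0.23 to 0.26. Of 476 values of single genes under an alternative, 446 kept direction and call, 13 lost the call and 6 gained it. All 13 losses came from leaving out a library. Signs changed in 11 values, all of genes that were not past the threshold. EBP, at -0.015 in all 6 libraries, gave 0.0082 with total count scaling, 0.10 with the span length offset (also with the block) and -0.044 to 0.014 without one library. ACLY gave -0.016 with the span length offset, with or without the block. Without one library, FASN ranged from -0.082 (siControl replicate 3 left out) to 0.11, and was -0.017 without siMETTL3 replicate 2. DHCR7 ranged from -0.038 (siMETTL3 replicate 1 left out) to 0.054, and SC5D from -0.036 (siMETTL3 replicate 3 left out) to 0.091. PHOX2A, at -0.10, gave 0.014 with the span length offset and 0.011 with the block as well. NR1H3 ranged from -0.024 (siMETTL3 replicate 3 left out) to 0.12 without one library. For these the cause was not tested. Among the other lipid genes, the lower calls went from 5 to 9 with the span length offset and the replicate block together, and from 5 to 8 without one library (8 without siControl replicate 1), and the cause was not tested.

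The replicate numbers matched the libraries weakly at most. Deviations from the group means correlated at 0.040, 0.049 and 0.067 for the same number, and at -0.064 to 0.026 for different numbers. With the replicate block, 40.3% of all tested genes were called, beside 37.8% without it. With the replicate block, 16 of the 28 genes were higher and 3 lower, with a median of 0.24, and IDI1 was the one changed call among them (log2 fold change -0.27, edgeR FDR 0.0318). Across all genes, the calls went from 27.2% (without siMETTL3 replicate 1) to 41.3% of tested genes (without siControl replicate 1). With 3 libraries a group, small changes in genes with few counts, such as HSD17B7, rest on counting error as well as on spread.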

Other observations

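Few genes passed the test in the branches that leave the pathway after farnesyl diphosphate. Of 12 tested genes of the isoprenoid branches (ubiquinone, dolichol and protein prenylation), 1 rose and 1 fell, with a median log2 fold change of -0.10. Together 16.7% of the list was called, beside 37.8% of all tested genes (18.6% higher and 19.2% lower). Both act in ubiquinone synthesis: PDSS2, a subunit of the enzyme that makes its side chain, rose from 87.4 ± 1.81 to 104 ± 2.99 CPM (log2 fold change 0.25, SE 0.057, edgeR FDR 0.00328), and COQ2, which joins the chain to the ring, fell from 30.4 ± 2.50 to 23.2 ± 1.14 CPM (log2 fold change -0.39, SE 0.089, edgeR FDR 0.0037). In glycerolipid synthesis 3 of 9 tested genes rose and 2 fell, 55.6% of the list in either direction beside 37.8% of all tested genes. GPAM, which starts glycerolipid synthesis on the mitochondrial surface, fell from 97.7 ± 4.60 to 71.2 ± 3.12 CPM (log2 fold change -0.45, SE 0.062, edgeR FDR 8.54e-05). PCYT1A, the control enzyme of phosphatidylcholine synthesis, was at 32.9, 35.3 and 34.2 CPM in siControl and 49.6, 45.2 and 51.3 CPM in siMETTL3 and rose (log2 fold change 0.51, SE 0.075, edgeR FDR 0.000144). Its counterpart for phosphatidylethanolamine, PCYT2, was at 19.3, 22.2 and 24.0 CPM in siControl and 14.9, 16.1 and 14.5 CPM in siMETTL3 and fell (log2 fold change -0.52, SE 0.10, edgeR FDR 0.00155). In each of these 5 genes the groups did not overlap, as in 49.9% of all tested genes. The 5 were named as called genes with the smallest FDR of their lists, so this separation adds no support to the calls.

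Of 9 tested genes of cholesterol traffic and storage, 1 rose and 0 fell, 11.1% of the list beside 37.8% of all tested genes in either direction and 18.6% higher. This was GRAMD1B, which moves cholesterol from the plasma membrane to the endoplasmic reticulum, with 35.0, 33.5 and 36.4 CPM in siControl and 41.0, 47.2 and 47.5 CPM in siMETTL3 (log2 fold change 0.37, SE 0.079, edgeR FDR 0.00235). The lysosomal cholesterol carrier NPC1 was at 32.4 ± 1.59 CPM in siControl and 35.7 ± 1.46 CPM in siMETTL3 (log2 fold change 0.14, SE 0.077, edgeR FDR 0.168).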
